A study of Mus musculus with 10 samples.

Results

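Nucleolar ribosome biogenesis genes were described in R2 cells, the CD71+ Ter119+ erythroid progenitors of mouse bone marrow. The group held the rows of the count table whose symbol was on a written list of factors of the snoRNP cores, RNA polymerase I, pre-rRNA processing and subunit assembly, without ribosomal proteins and DEAD-box helicases. The list was drawn up by function, with earlier results of these data known. All 38 listed symbols had a row among the 24421 genes of the table, and all 38 passed the filter on low counts that left 11846 genes for testing. They were ordered in 7 groups by role. Nop56, Nop58 and Fbl form the box C/D snoRNP core, and Dkc1, Nhp2, Nop10 and Gar1 the box H/ACA snoRNP core. Ncl, Npm1 and Nolc1 are abundant nucleolar phosphoproteins. Polr1a and Polr1b are the large subunits of RNA polymerase I, and Ubtf and Rrn3 its initiation factors. Wdr43, Wdr75, Utp15, Utp20, Nop14, Nol6, Rrp9 and Nat10 act on the 18S rRNA precursor in the small subunit processome. Rrp12, Bysl, Nob1, Tsr1 and Ltv1 act late in 40S assembly, and Bop1, Pes1, Wdr12, Nop2, Nop16, Rrp1b, Rrs1, Ebna1bp2, Gnl3, Nip7 and Sbds act in 60S assembly.

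Ribosomes are built in the nucleolus, where RNA polymerase I transcribes a long rRNA precursor that snoRNPs modify and assembly factors fold, cut and combine with ribosomal proteins. Erythroid precursors make ribosomes in large numbers before they fill with hemoglobin, and many genes of the pathway are known Myc targets. Free Rpl5 and Rpl11 can bind Mdm2 and stabilize p53 when assembly is disturbed, and DDX41, a DEAD-box RNA helicase, has itself been tied to ribosome biogenesis. The question put to these genes was whether their mRNA differed with 1 lost Ddx41 allele, with 1 lost Trp53 allele or with both.

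RNA-seq was made from sorted R2 cells of 10 BoyJ recipient mice, 1 library per mouse, 8 weeks after transplantation of 1000000 bone marrow cells. The donors carried Rosa-CreERT2, which drives a tamoxifen-inducible Cre in all tissues, so Cre and tamoxifen (1 mg in 50 ul of corn oil, 2 rounds of 5 days) were shared by all 4 genotypes, controls included. The genotypes were Ddx41+/+ Trp53+/+ (3 mice, replicates 10, 11 and 12, called wild-type below), Ddx41+/- Trp53+/+ (2 mice, replicates 32 and 34, called Ddx41+/-), Ddx41+/+ Trp53+/- (3 mice, replicates 22, 23 and 24, called Trp53+/-) and Ddx41+/- Trp53+/- (2 mice, replicates 46 and 47, called double-heterozygous). Ddx41+/- stands for a floxed allele that was excised by tamoxifen and Trp53+/- for a heterozygous deletion. Host cells that survived irradiation can remain among the sorted cells, and the age and sex of the mice were not given in the sources used here.

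The libraries held 7866648 to 20283930 counts, and the shallowest were Ddx41+/- replicate 34 and Trp53+/- replicate 22 (10313928 counts). Values per mouse are given in CPM, counts per 1000000 of a library size scaled as for the tests. Ddx41 was measured at 21.9 to 26.6 CPM in the 6 Ddx41+/+ mice and at 12.5 to 16.5 CPM in the 4 Ddx41+/- mice. Its log2 fold change over both Trp53 genotypes was -0.70 (SE 0.11, edgeR adjusted p = 0.0173). Within Trp53+/+ mice Ddx41 was not called, at -0.63 (SE 0.16, edgeR adjusted p = 0.0887). Within Trp53+/- mice it was not called either, at -0.78 (SE 0.15, edgeR adjusted p = 0.177). A missing call for a member in these comparisons therefore does not show that its mRNA was unchanged. Trp53 was measured at 57.4 to 68.1 CPM in the 5 Trp53+/+ mice and at 40.3 to 46.2 CPM in the 5 Trp53+/- mice, a log2 fold change of -0.48 (SE 0.07, edgeR adjusted p = 0.00355). The erythroid markers Tfrc, Alas2 and Slc4a1 were high in every mouse, from 2690 CPM for the lowest value of Tfrc to 30500 CPM for the highest of Slc4a1, but the globin rows Hba-a1, Hba-a2 and Hbb-bs did not exceed 1.28 CPM and Hbb-bt was listed at 0. The sums of 12 B cell markers were 217.4 to 365.3 CPM in wild-type mice and 375.4 to 532.9 CPM in the other 7 mice, and the sums of 6 T and NK cell markers were 3.65 to 6.30 CPM against 7.30 to 12.7 CPM. The sums of the macrophage, neutrophil, erythroid and cycling markers overlapped between wild-type mice and all other mice. Those of 10 neutrophil and myeloid progenitor markers were large, 5224 to 8338 CPM in wild-type mice and 4885 to 8351 CPM in the other 7 mice. The part of these markers in the values below was not tested.

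Start regions of members were searched for CACGTG, the E-box that Myc binds and which reads the same on both strands. Of the 38 members, 31 had a promoter entry in RefSeq (GRCm38.p6), and in the 250 bases before the start CACGTG was present in 2 of them (6.5%), Rrn3 and Nop2. The same letters stood in 7.8% of the 17224 genes that had both a promoter entry and a row in the count table. The start regions of these genes are shown with those of the snoRNP genes Nop56 and Dkc1 and of Ncl, all written 5′ to 3′ on the strand of the gene, with CACGTG in capitals. They lie at chr16:13780449-13780698 (Rrn3, plus strand), chr6:125131633-125131882 (Nop2, plus strand), chr2:130274162-130274411 (Nop56, plus strand), chrX:75095604-75095853 (Dkc1, plus strand) and chr1:86359456-86359705 (Ncl, minus strand).
Rrn3: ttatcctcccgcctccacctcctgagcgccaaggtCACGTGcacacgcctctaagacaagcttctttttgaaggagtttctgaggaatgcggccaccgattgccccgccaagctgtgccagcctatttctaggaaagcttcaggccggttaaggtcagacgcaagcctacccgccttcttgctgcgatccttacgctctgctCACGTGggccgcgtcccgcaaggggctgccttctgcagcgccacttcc
Nop2: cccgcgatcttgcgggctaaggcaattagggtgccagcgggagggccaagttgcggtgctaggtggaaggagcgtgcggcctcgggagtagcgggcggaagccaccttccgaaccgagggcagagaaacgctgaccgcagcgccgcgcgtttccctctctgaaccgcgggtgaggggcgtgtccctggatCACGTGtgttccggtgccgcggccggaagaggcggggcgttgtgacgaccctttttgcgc
Nop56: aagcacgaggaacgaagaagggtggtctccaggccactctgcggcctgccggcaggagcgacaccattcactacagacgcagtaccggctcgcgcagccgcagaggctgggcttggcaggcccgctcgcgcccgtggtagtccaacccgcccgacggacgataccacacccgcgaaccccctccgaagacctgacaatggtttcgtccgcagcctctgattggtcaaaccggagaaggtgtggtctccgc
Dkc1: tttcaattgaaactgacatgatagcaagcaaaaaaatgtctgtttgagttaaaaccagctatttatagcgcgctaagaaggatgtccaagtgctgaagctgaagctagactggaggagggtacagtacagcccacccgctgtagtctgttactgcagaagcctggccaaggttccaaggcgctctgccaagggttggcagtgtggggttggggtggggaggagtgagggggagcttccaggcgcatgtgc
Ncl: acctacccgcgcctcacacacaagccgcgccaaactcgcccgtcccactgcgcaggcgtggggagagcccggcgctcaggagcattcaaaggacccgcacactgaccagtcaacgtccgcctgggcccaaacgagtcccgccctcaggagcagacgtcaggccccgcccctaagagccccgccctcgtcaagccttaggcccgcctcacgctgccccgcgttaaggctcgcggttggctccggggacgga
In Rrn3 the copies ended 210 and 43 bases before the start, and in Nop2 the only copy ended 55 bases before it. The match describes these letters alone, and the windows of Nop56, Dkc1 and Ncl hold no CACGTG.

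Per length of exon, the members spanned a wide range of levels in wild-type R2 cells. The 5 highest were Npm1 at 61.2 ± 6.06 RPKM (reads per kilobase of exon and 1000000 counts; mean ± SD, n = 3), Ubtf at 55.2 ± 1.53, Ncl at 46.3 ± 2.32, Sbds at 38.2 ± 2.98 and Nhp2 at 18.6 ± 1.99. The 5 lowest were Utp20 at 1.26 ± 0.14 RPKM, Nat10 at 1.23 ± 0.08, Polr1b at 1.17 ± 0.39, Wdr12 at 0.70 ± 0.15 and Rrp1b at 0.52 ± 0.08. Npm1 is a histone and ribosome chaperone, Ubtf binds and opens the rRNA gene promoters, and Sbds releases eIF6 from the finished 60S subunit, whereas Utp20 and Nat10 act in the small subunit processome. The highest level was 118-fold the lowest. The order was loose, since the values of neighbours in it overlapped between mice for 32 of 37 pairs, and only Ubtf over Ncl, Ncl over Sbds, Sbds over Nhp2, Nop56 over Nolc1 and Nop14 over Rrn3 stood apart. Of the 38 members, 22 lay above 3.61 RPKM, the median of 11427 tested genes with a length, and the median member stood at 4.36 RPKM. Exon lengths were unions over all annotated transcripts. Genes with long rare exons such as Wdr12 (11955 bases) are thus placed too low if those exons are not used. The same can hold for Ncl (10188 bases). It had the highest mean CPM of the members in wild-type mice, 471.4 against 361.9 for Ubtf. The place of Ncl below Npm1 and Ubtf thus depends on this length.

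**Figure D1:**
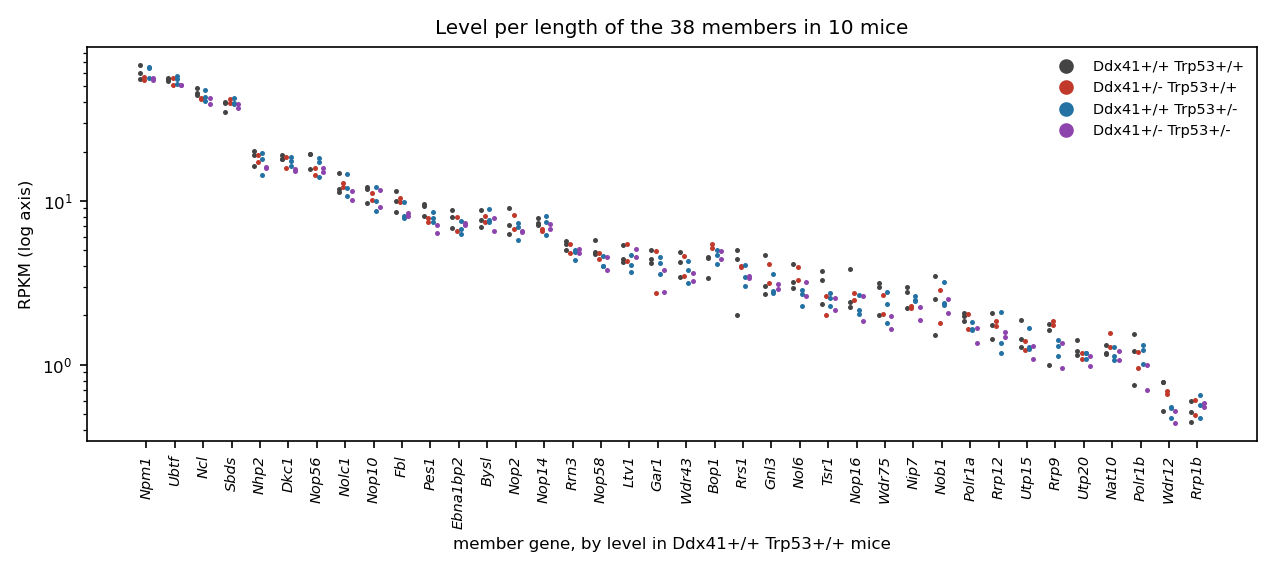
RPKM (log axis) of the 38 members, ordered by their level in wild-type mice, with 1 point per mouse coloured by genotype. Npm1, Ubtf, Ncl and Sbds stand at 34.8 RPKM or more in every mouse and Nhp2 at 20.3 RPKM or less, and the points of the 4 genotypes overlap for most genes.

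Counts of some members could hold reads of other genes. Of the 75-base stretches in the longest transcript, 30.9% of those of Npm1, 26.8% of Tsr1, 14.4% of Nop56 and 13.2% of Pes1 also occurred in transcripts of another gene. Exons of Srr on the opposite strand cover 32.3% of the exon bases of Tsr1, and whether strand was used in counting was not given in the sources used here. Inside 7 members (Nop56, Nop58, Dkc1, Ncl, Wdr43, Tsr1 and Gnl3) lie 21 annotated snoRNA genes, of which 12 had a row, with no more than 16 counts in any library.

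Values of single members are given by role in CPM, always in the order of replicates 10, 11 and 12 for wild-type, 32 and 34 for Ddx41+/-, 22, 23 and 24 for Trp53+/- and 46 and 47 for double-heterozygous mice. In bulk RNA of sorted cells, fewer cells that express a gene and less RNA of it per cell cannot be told apart.

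In the box C/D core, which methylates rRNA, Nop56 was measured at 78.95, 79.2 and 64.5 CPM in wild-type, 64.8 and 59.3 in Ddx41+/-, 74.9, 71.1 and 57.3 in Trp53+/- and 61.6 and 65.1 in double-heterozygous mice. Nop58, its partner at the snoRNA, was measured at 52.4, 62.01 and 50.8 CPM in wild-type, 51.7 and 47.4 in Ddx41+/-, 49.7, 43.3 and 43.2 in Trp53+/- and 40.7 and 48.8 in double-heterozygous mice, and all 3 wild-type mice were above all 3 Trp53+/- mice. Fibrillarin (Fbl), the methyltransferase, was measured at 41.8, 48.3 and 35.97 CPM in wild-type, 41.7 and 43.8 in Ddx41+/-, 41.4, 33.3 and 34.2 in Trp53+/- and 35.5 and 34.3 in double-heterozygous mice. For Fbl, both double-heterozygous mice lay below every mouse with Trp53+/+. For Nop56, wild-type replicates 10 and 11 were the highest mice and Trp53+/- replicate 24 the lowest.

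In the box H/ACA core, which converts uridine to pseudouridine and also belongs to telomerase, dyskerin (Dkc1) was measured at 73.9, 78.8 and 74.3 CPM in wild-type, 65.3 and 76.5 in Ddx41+/-, 76.6, 72.7 and 67.2 in Trp53+/- and 64.3 and 62.5 in double-heterozygous mice. Both double-heterozygous mice were the lowest of the 10. Gar1 was measured at 8.596, 7.14 and 7.61 CPM in wild-type, 4.68 and 8.51 in Ddx41+/-, 7.2, 6.18 and 7.74 in Trp53+/- and 4.76 and 6.45 in double-heterozygous mice, with 1 mouse of each Ddx41+/- genotype (32 and 46) below 5 CPM. Nhp2 spanned 16.4 to 23.2 CPM and Nop10 9.61 to 13.5 CPM over the 10 mice.

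Nucleolin (Ncl), which binds the rRNA precursor early, was measured at 462.5, 498.2 and 453.5 CPM in wild-type, 429.3 and 430.2 in Ddx41+/-, 485.3, 412.2 and 440.3 in Trp53+/- and 400.3 and 429.8 in double-heterozygous mice. Both Ddx41+/- mice and both double-heterozygous mice were below all 3 wild-type mice, while Trp53+/- replicate 23 was lower than 3 of these 4 mice. Npm1 was measured at 161.4, 180.2 and 148.0 CPM in wild-type, 151.0 and 146.7 in Ddx41+/-, 171.8, 149.6 and 174.9 in Trp53+/- and 149.2 and 146.4 in double-heterozygous mice. The 4 mice with 1 Ddx41 allele held Npm1 at 146.4 to 151.0 CPM, the 6 others at 148.0 to 180.2 CPM, so the ranges touched only through wild-type replicate 12 and Trp53+/- replicate 23. Nolc1, a snoRNP chaperone, spanned 40.1 to 59.1 CPM.

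Of RNA polymerase I, the largest subunit gene Polr1a was measured at 21.9, 24.4 and 23.7 CPM in wild-type, 19.5 and 24.1 in Ddx41+/-, 21.8, 19.3 and 19.7 in Trp53+/- and 16.03 and 19.9 in double-heterozygous mice. All wild-type mice were above all Trp53+/- mice and above both double-heterozygous mice, while Ddx41+/- replicate 32 lay below and replicate 34 within the wild-type range. The second subunit gene Polr1b was measured at 8.91, 7.09 and 4.36 CPM in wild-type, 6.995 and 5.59 in Ddx41+/-, 7.1, 5.87 and 7.62 in Trp53+/- and 5.81 and 4.09 in double-heterozygous mice, and its 3 wild-type mice alone covered most of the range. Ubtf, the steadiest member, was measured at 370.5, 364.4 and 350.9 CPM in wild-type, 333.8 and 366.4 in Ddx41+/-, 361.6, 377.5 and 337.1 in Trp53+/- and 332.7 and 335.7 in double-heterozygous mice. Both double-heterozygous mice were below all wild-type and all Trp53+/- mice, and Ddx41+/- replicate 32 lay between them. Rrn3 spanned 18.8 to 24.6 CPM.

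Of the small subunit processome, Wdr75, a subunit that joins processome assembly to RNA polymerase I transcription, was measured at 15.4, 14.5 and 9.89 CPM in wild-type, 10.04 and 13.1 in Ddx41+/-, 13.6, 8.84 and 11.5 in Trp53+/- and 8.13 and 9.701 in double-heterozygous mice. Both double-heterozygous mice were below all wild-type mice, but wild-type replicate 12 was close to the higher of them. Nol6 was measured at 15.4, 21.6 and 16.7 CPM in wild-type, 17.3 and 20.7 in Ddx41+/-, 15.1, 11.99 and 14.2 in Trp53+/- and 16.8 and 13.8 in double-heterozygous mice, with all 3 Trp53+/- mice below all wild-type mice. Rrp9, which binds the U3 snoRNA, was measured at 5.17, 4.76 and 2.905 CPM in wild-type, 5.11 and 5.46 in Ddx41+/-, 3.3, 3.83 and 4.13 in Trp53+/- and 4.01 and 2.804 in double-heterozygous mice, and wild-type replicate 12 had the second lowest value. Nat10, which acetylates 18S rRNA, was measured at 8.44, 8.55 and 9.48 CPM in wild-type, 11.3 and 9.27 in Ddx41+/-, 7.7, 9.21 and 8.09 in Trp53+/- and 7.67 and 8.69 in double-heterozygous mice, with the highest value in Ddx41+/- replicate 32. Nop14 spanned 16.9 to 22.1 CPM, Wdr43 15.02 to 23.2, Utp15 6.33 to 10.9 and Utp20 9.98 to 14.5 CPM.

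Of the late 40S factors, Tsr1, which holds the young 40S subunit in an inactive form, was measured at 12.7, 14.3 and 9.06 CPM in wild-type, 10.04 and 7.75 in Ddx41+/-, 10.5, 8.71 and 9.84 in Trp53+/- and 9.76 and 8.24 in double-heterozygous mice. Wild-type replicates 10 and 11 were the highest mice and Ddx41+/- replicate 34 the lowest. Ltv1, which leaves the 40S subunit late in its maturation, was measured at 12.5, 10.2 and 9.75 CPM in wild-type, 9.98 and 12.7 in Ddx41+/-, 10.8, 8.59 and 9.43 in Trp53+/- and 11.8 and 10.5 in double-heterozygous mice, and its genotypes overlapped in every comparison. Nob1, the nuclease that makes the 3′ end of 18S rRNA, was measured at 12.2, 8.796 and 5.33 CPM in wild-type, 6.26 and 10.03 in Ddx41+/-, 11.1, 8.096 and 8.32 in Trp53+/- and 7.26 and 8.75 in double-heterozygous mice, and wild-type mice held both its highest and its lowest value. Bysl spanned 25.1 to 34.4 CPM and Rrp12 5.12 to 9.10 CPM.

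Bop1, Pes1 and Wdr12 form 1 complex that is needed for processing of 60S rRNA. Their values did not run alike. Bop1 was measured at 13.5, 13.3 and 10.03 CPM in wild-type, 16.2 and 15.2 in Ddx41+/-, 14.9, 12.1 and 13.7 in Trp53+/- and 14.7 and 13.01 in double-heterozygous mice, with both Ddx41+/- mice above all others. Pes1 was measured at 28.8, 28.04 and 24.4 CPM in wild-type, 22.4 and 23.8 in Ddx41+/-, 25.9, 22.6 and 23.6 in Trp53+/- and 21.5 and 19.2 in double-heterozygous mice, with both Ddx41+/- mice and both double-heterozygous mice below all wild-type mice. Wdr12 was measured at 9.39, 9.33 and 6.23 CPM in wild-type, 7.97 and 8.26 in Ddx41+/-, 5.7, 6.49 and 6.58 in Trp53+/- and 5.29 and 6.28 in double-heterozygous mice, with the Trp53+/- and double-heterozygous mice at 5.29 to 6.58 CPM and every Trp53+/+ mouse except wild-type replicate 12 at 7.97 CPM or more. Of the other 60S factors, Sbds was measured at 81.7, 80.6 and 70.7 CPM in wild-type, 85.1 and 80.4 in Ddx41+/-, 85.8, 79.5 and 80.5 in Trp53+/- and 74.9 and 79.5 in double-heterozygous mice, and its lowest value was that of wild-type replicate 12. Rrp1b, the least abundant member per length, was measured at 3.43, 4.62 and 3.94 CPM in wild-type, 3.83 and 4.699 in Ddx41+/-, 4.4, 5.01 and 3.67 in Trp53+/- and 4.24 and 4.49 in double-heterozygous mice, and its genotypes overlapped in every comparison. Ebna1bp2 spanned 22.4 to 31.5 CPM, Nop2 16.01 to 25, Gnl3 16.6 to 28.6, Nip7 5.87 to 9.39, Nop16 3.42 to 7.07 and Rrs1 4.15 to 10.3 CPM. For each of these 6 the highest mouse was a wild-type mouse, as for Pes1 and Wdr12. Bop1 was highest in Ddx41+/- replicate 32, Sbds in Trp53+/- replicate 22 and Rrp1b in Trp53+/- replicate 23. No share over all tested genes is given for a highest value in wild-type mice.

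**Figure D2:**
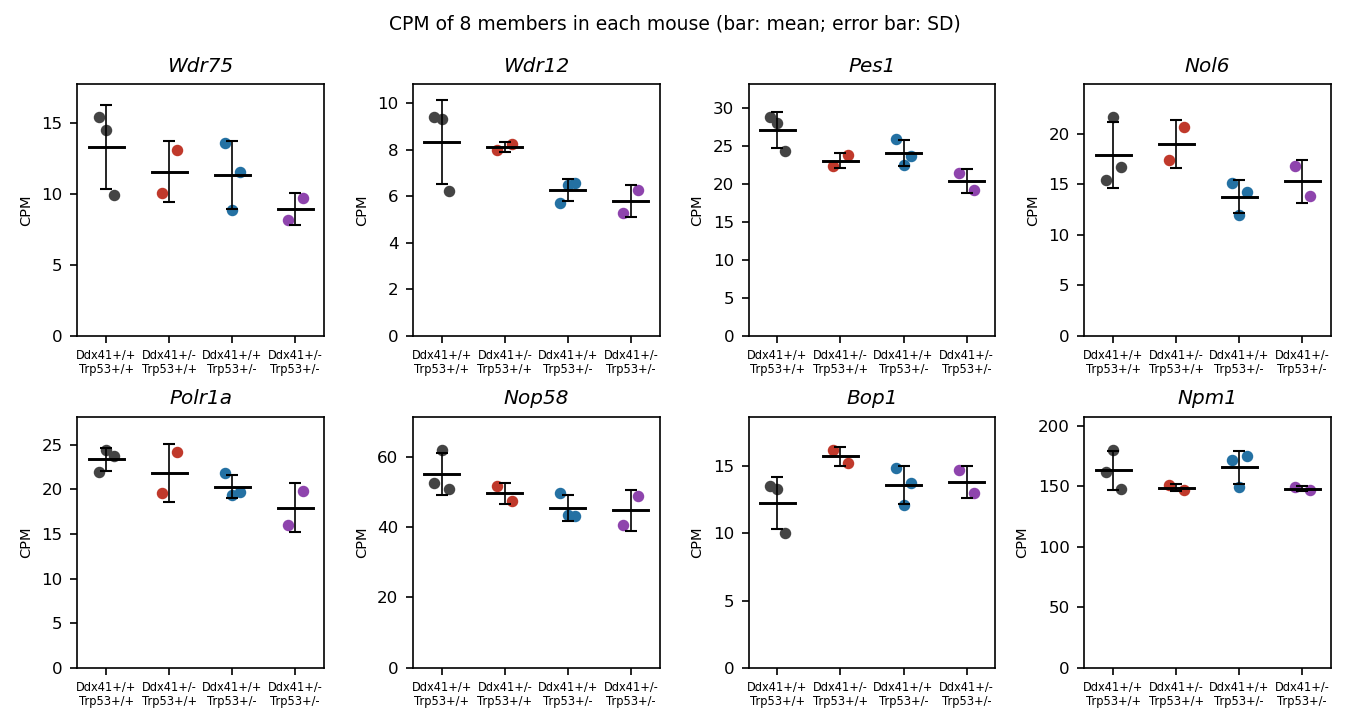
CPM (axes from 0) of 8 members in each mouse by genotype; the bar is the mean and the error bar the SD over 2 or 3 mice. Pes1 lies at 24.4 to 28.8 CPM in wild-type mice and at 19.2 to 21.5 CPM in double-heterozygous mice, whereas for Bop1 both Ddx41+/- mice with Trp53+/+ lie above all other mice.

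Members tended to be high or low together in a mouse. Taking each member's difference from its mean over the 10 mice in log2 CPM, the median over the 38 members was 0.14, 0.19 and -0.09 in wild-type replicates 10, 11 and 12, -0.04 and 0.12 in Ddx41+/- replicates 32 and 34, 0.09, -0.09 and -0.05 in Trp53+/- replicates 22, 23 and 24, and -0.11 and -0.08 in double-heterozygous replicates 46 and 47. All tested genes together gave medians between 0.00 and 0.01 in every mouse. The scaling and centring hold such medians near 0, so they do not measure how unusual the member medians are. Wild-type replicates 10 and 11 thus stood at the top and double-heterozygous replicate 46 at the bottom, and wild-type replicate 12 was among the 3 lowest mice.

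By count, 31, 33 and 9 of the 38 members lay above their own median in the wild-type mice, 18 and 27 in the Ddx41+/- mice, 31, 8 and 17 in the Trp53+/- mice and 9 and 7 in the double-heterozygous mice. Of all tested genes, 48.8% to 51.3% lay above their own median in each mouse. The scaling and the use of each gene's own median hold this share nearly fixed. It therefore does not measure how unusual the member counts are. Wild-type replicates 10 and 11 held the highest value of 13 and 15 members, and double-heterozygous replicate 46 the lowest value of 11. No share over all tested genes is given for these highest and lowest values. The summed CPM of the members ran from 1556 in double-heterozygous replicate 46 to 1896 in wild-type replicate 11.

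Every genotype with 2 or 3 mice, other than the double heterozygotes, held mice on both sides of 0, and the spread between mice of a genotype was an SD of 0.11 (log2) for these medians. Averaged by genotype, the mouse medians were 0.08 ± 0.15 (SD, n = 3) in wild-type, 0.04 ± 0.11 (n = 2) in Ddx41+/-, -0.02 ± 0.10 (n = 3) in Trp53+/- and -0.09 ± 0.02 (n = 2) in double-heterozygous mice. By genotype means, 22 members were highest in wild-type mice and 26 lowest in double-heterozygous mice, where 26.7% and 25.6% of all tested genes were. The 4 mice with a median above 0 were the pair of shallowest libraries, replicates 34 and 22, and the pair of deepest, replicates 10 and 11 (18795871 and 20283930 counts).

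**Figure D3:**
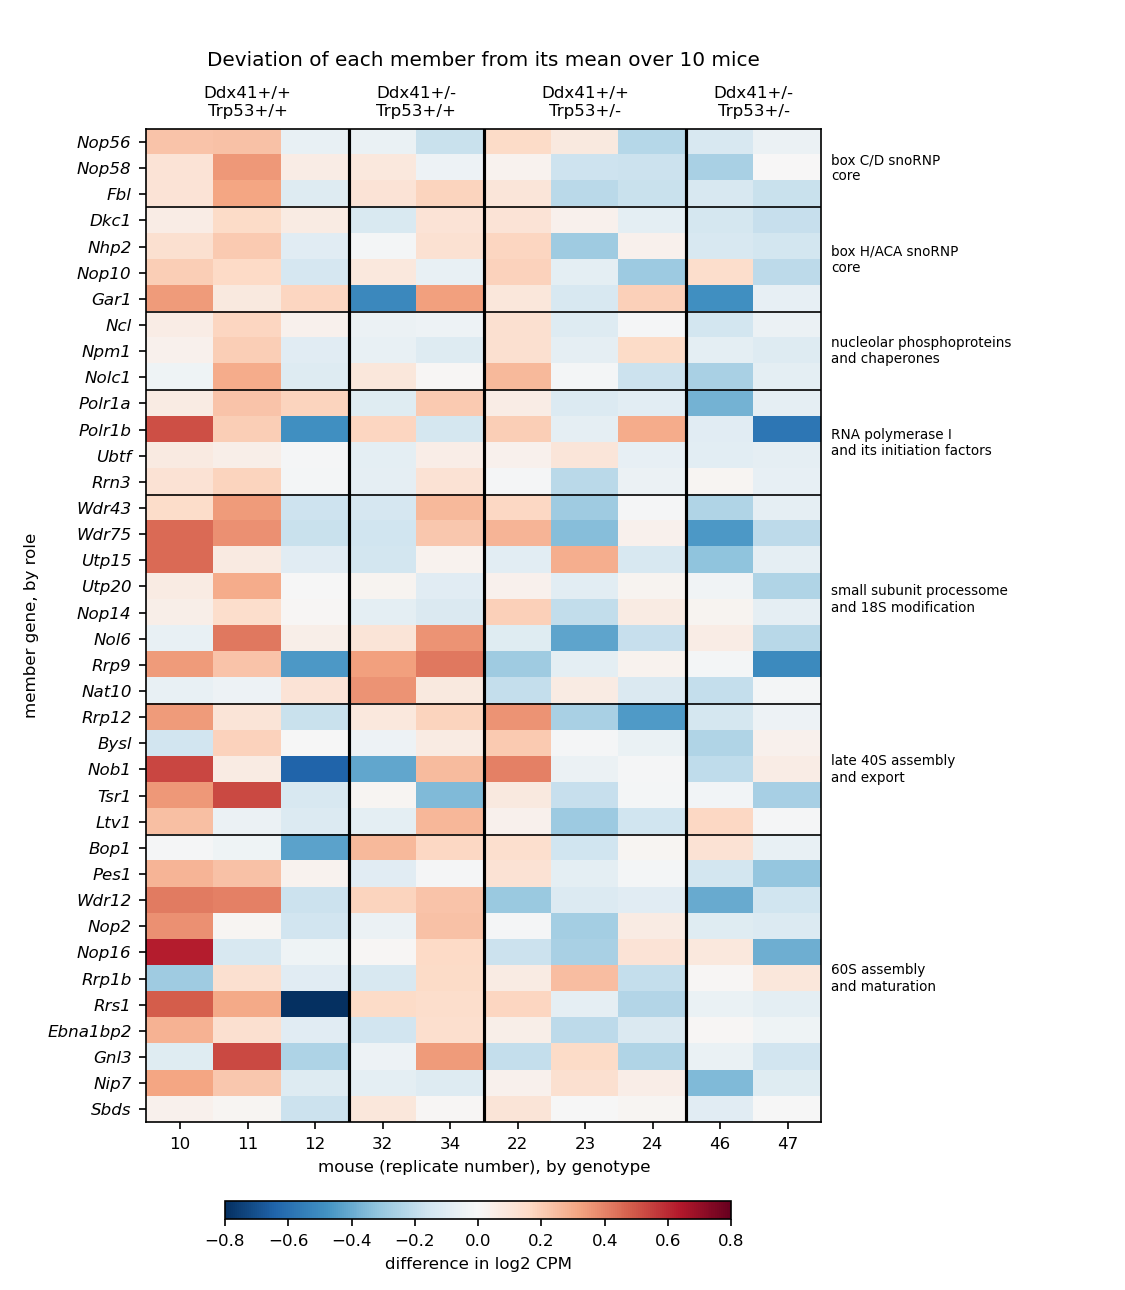
Difference of each member (rows, by role) from its mean over the 10 mice (columns, by genotype) in log2 CPM, red for above and blue for below. Wild-type replicates 10 and 11 are red for most members and the double-heterozygous mice 46 and 47 pale to blue, while wild-type replicate 12 is blue for most, with the strongest blue at Rrs1.

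**Figure D4:**
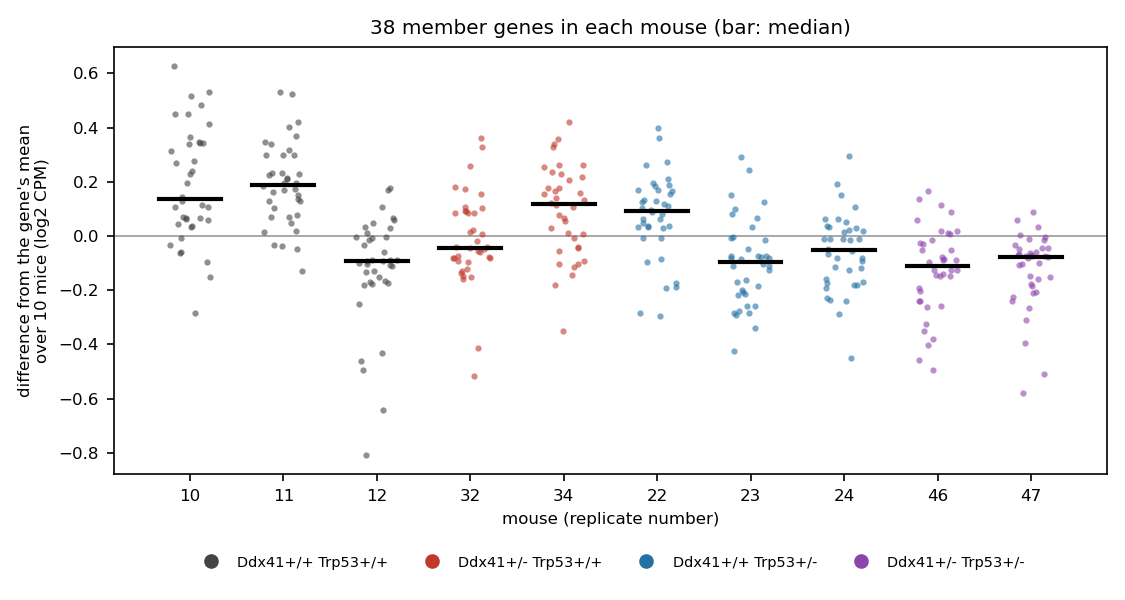
The same differences as points, 38 per mouse, with a bar at the median. Medians run from -0.11 in double-heterozygous replicate 46 to 0.19 in wild-type replicate 11, and the points of all mice overlap.

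Within genotypes, the median SD of a member was 0.18 in log2 CPM, against 0.19 for all tested genes. The largest spreads were those of Nob1 (0.42), Rrs1 (0.42), a 60S factor that carries 5S rRNA into the nucleolus, and Polr1b (0.36). Ubtf had the smallest, 0.07.

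The Ddx41 effect with intact Trp53 was the first comparison, 2 mice against 3. None of the 38 members was called at an adjusted p under 0.05 in edgeR's quasi-likelihood test, where 0.625% of all tested genes were, and DESeq2 called none either. None had an unadjusted p under 0.05 (9.64% of all tested genes). Log2 fold changes below 0 were found for 27 members (49.7% of all tested genes), and the median log2 fold change was -0.07 against 0.00 for all tested genes. The 3 lowest values were those of Tsr1 (-0.42, SE 0.22, edgeR adjusted p = 0.574), Gar1 (-0.28, SE 0.26) and Nop56 (-0.26, SE 0.12). The 3 highest were those of Bop1 (0.36, SE 0.17, edgeR adjusted p = 0.532), Rrp9 (0.29, SE 0.29) and Nat10 (0.24, SE 0.19).

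Pes1, Nop14 and Ncl were lower in both Ddx41+/- mice than in all 3 wild-type mice, 3 of 38 members where 12.1% of all tested genes were, and Bop1 alone was higher in both (12.9%). By role, all 4 members of the H/ACA core, all 4 of RNA polymerase I and all 3 phosphoproteins had values below 0. In 60S assembly 6 of 11 did. The medians were -0.08, -0.09 and -0.13, against 0.00 in 60S assembly. Outside the members, 10 of 12 other RNA polymerase I subunits and factors had values above 0 and 2 below. Their median was 0.10. For 25 of the 38 members the 95% interval lay within a 1.5-fold change either way, as for Ncl (-0.30 to 0.03) and Ubtf (-0.20 to 0.11), and for Gar1 it reached from -0.84 to 0.27. Without Ddx41+/- replicate 32, 16 members were below 0, Gar1 was at 0.12 and the median was 0.01, and without wild-type replicate 12 the median was -0.16 and 3 members had an unadjusted p under 0.05. With 1 surrogate variable in the model, 15 were below 0 and the median was 0.07. The summed CPM of cycling markers also differed here, 15540 and 15970 in Ddx41+/- mice against 16370 to 17760 in wild-type mice. Mki67 gave the largest values in this sum, 9880 to 11600 CPM over all mice. The part of the sum was not tested.

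The Ddx41 effect with 1 Trp53 allele compared 2 double-heterozygous with 3 Trp53+/- mice. No member was called by edgeR (0.0422% of all tested genes) or DESeq2, and none had an unadjusted p under 0.05 (3.75%). Values below 0 were found for 30 members (51.2% of all tested genes), with a median log2 fold change of -0.10 against -0.01. With 1 surrogate variable, 23 were below 0 and the median was -0.04. The lowest were Polr1b (-0.47, SE 0.29, edgeR adjusted p = 1.0), Wdr75 (-0.33, SE 0.23) and Gar1 (-0.33, SE 0.26), and the highest Ltv1 (0.22, SE 0.19), Nol6 (0.16, SE 0.18) and Ebna1bp2 (0.08, SE 0.14). In 7 members, Polr1b, Nip7, Pes1, Dkc1, Npm1, Ubtf and Sbds, both double-heterozygous mice were below all Trp53+/- mice (10.8% of all tested genes). For some the nearest mice were almost tied. They stood at 79.46 against 79.48 CPM for Sbds, 149.2 against 149.6 for Npm1 and 5.81 against 5.87 for Polr1b. The sums of late erythroid markers (51130 and 52970 against 53900 to 56340 CPM) and macrophage markers (436.7 and 601.8 against 297.0 to 413.7 CPM) did not overlap in this comparison, nor did those of T and NK cell markers (7.35 and 8.54 against 8.70 to 12.7 CPM), and their part was not tested.

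Pes1 had almost the same Ddx41 effect in both Trp53 genotypes, a log2 fold change of -0.24 (SE 0.13) in each. The difference of the 2 effects was tested itself for every gene. No member was called by edgeR (0.0675% of all tested genes) or DESeq2, and none had an unadjusted p under 0.05 (5.01%). The difference was below 0 for 26 members (51.5% of all tested genes), with a median of -0.04. It was lowest for Rrp9 (-0.44, SE 0.42, edgeR adjusted p = 1.0), Polr1b (-0.37, SE 0.40) and Bop1 (-0.33, SE 0.24) and highest for Tsr1 (0.32, SE 0.30), Ebna1bp2 (0.21, SE 0.20) and Ltv1 (0.17, SE 0.27). Intervals were wide, within 1.5-fold for 16 of the 38, and the direction rested on single mice. The count below 0 was 12 without wild-type replicate 12, 14 without Ddx41+/- replicate 34 and 18 without Trp53+/- replicate 22, with medians above 0 in these 3 fits.

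The Trp53 effect with intact Ddx41 compared 3 mice with 3. No member was called by edgeR (0.988% of all tested genes) or DESeq2. Nop58 (-0.28, SE 0.11, edgeR adjusted p = 0.355) and Nol6 (-0.39, SE 0.16, edgeR adjusted p = 0.431) had unadjusted p-values under 0.05, of 0.0178 and 0.0279, 2 of 38 members where 4.02% of all tested genes had such a p and a lower value. Values below 0 were found for 31 members (49.9% of all tested genes), with a median log2 fold change of -0.15 against 0.00. The lowest was Wdr12 (-0.41, SE 0.20), then Nol6 and Tsr1 (-0.32, SE 0.19), and the highest were Bop1 (0.14, SE 0.15), Rrp1b (0.12, SE 0.24) and Sbds (0.07, SE 0.08).

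All 8 members of the small subunit processome, all 3 of the C/D core and all 4 of the H/ACA core were below 0, with medians of -0.15, -0.22 and -0.13. The genotypes did not overlap for 3 members, Nol6, Nop58 and Polr1a, all lower (6.53% of all tested genes). For 27 members the interval lay within 1.5-fold. Without wild-type replicate 11 or Trp53+/- replicate 23 no member had an unadjusted p under 0.05, without Trp53+/- replicate 24 there was 1, and without wild-type replicate 12 there were 7.

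The Trp53 effect with 1 Ddx41 allele, 2 mice against 2, had no member called by edgeR (0.177% of all tested genes) or DESeq2 and none with an unadjusted p under 0.05 (5.41%). In the joint fit without wild-type replicate 12 there were 3. Values below 0 were found for 34 members (50.9% of all tested genes), with a median log2 fold change of -0.17 against 0.00. The lowest were Rrp9 (-0.63, SE 0.33, edgeR adjusted p = 0.931), the only member past a 1.5-fold change in this comparison, Wdr12 (-0.48, SE 0.25) and Polr1b (-0.36, SE 0.32). The highest were Nop14 (0.07, SE 0.16), Rrp1b (0.05, SE 0.29) and Nop56 (0.03, SE 0.13). Both double-heterozygous mice were below both Ddx41+/- mice for 16 members (18.5% of all tested genes), 7 of them 60S factors, and above both for Nop14 alone (18.8%). Sums of early erythroid markers did not overlap either (183.9 and 195.7 against 199.4 and 205.6 CPM). Nor did those of cycling markers (16540 and 17540 against 15540 and 15970 CPM). Over all mice, the largest values in the early erythroid sum were those of Hspd1 (61.6 to 91.5 CPM) and Cd44 (55.1 to 79.1 CPM). Mki67, at 9880 to 11600 CPM, was the largest in the cycling sum. The part of these sums was not tested.

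Double-heterozygous against wild-type mice, 2 against 3, gave the lowest median of the members among these comparisons. No member was called by edgeR (1.24% of all tested genes) or DESeq2, but 35 of 38 had values below 0 (50.6% of all tested genes) and the median log2 fold change was -0.23 against 0.00. All 4 members of RNA polymerase I, all 8 of the processome and all members of both snoRNP cores were below 0. Only Bop1 (0.17, SE 0.17), Rrp1b (0.13, SE 0.26) and Ltv1 (0.04, SE 0.19) were above it, and Ltv1 changed sign without wild-type replicate 12 or double-heterozygous replicate 46.

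The lowest values were those of Wdr75 (-0.58, SE 0.23, edgeR adjusted p = 0.299), Wdr12 (-0.53, SE 0.22, edgeR adjusted p = 0.351) and Gar1 (-0.47, SE 0.25, edgeR adjusted p = 0.503). Unadjusted p-values under 0.05, with lower values, were found for 7 members (4.85% of all tested genes). They were Wdr75, Wdr12, Pes1 (-0.41, SE 0.13, edgeR adjusted p = 0.181), Polr1a (-0.38, SE 0.15), Nop58 (-0.30, SE 0.12), Dkc1 (-0.26, SE 0.10) and Ncl (-0.18, SE 0.08), and the smallest adjusted p among the 38 was that of Pes1. The genotypes did not overlap for 11 members, all lower (14.3% of all tested genes), namely Wdr75, Gar1, Pes1, Polr1a, Nop58, Fbl, Utp20, Dkc1, Nhp2, Ncl and Ubtf.

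The count of members with an unadjusted p under 0.05 depended on single mice. It was 16 without wild-type replicate 12, 1 without wild-type replicate 11 and 2 without double-heterozygous replicate 46. With 1 surrogate variable it was 1, and the median log2 fold change was -0.09. Beside these values, B cell marker sums were 443.7 and 503.1 CPM in double-heterozygous mice against 217.4 to 365.3 CPM in wild-type mice, and their part was not tested.

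**Figure D5:**
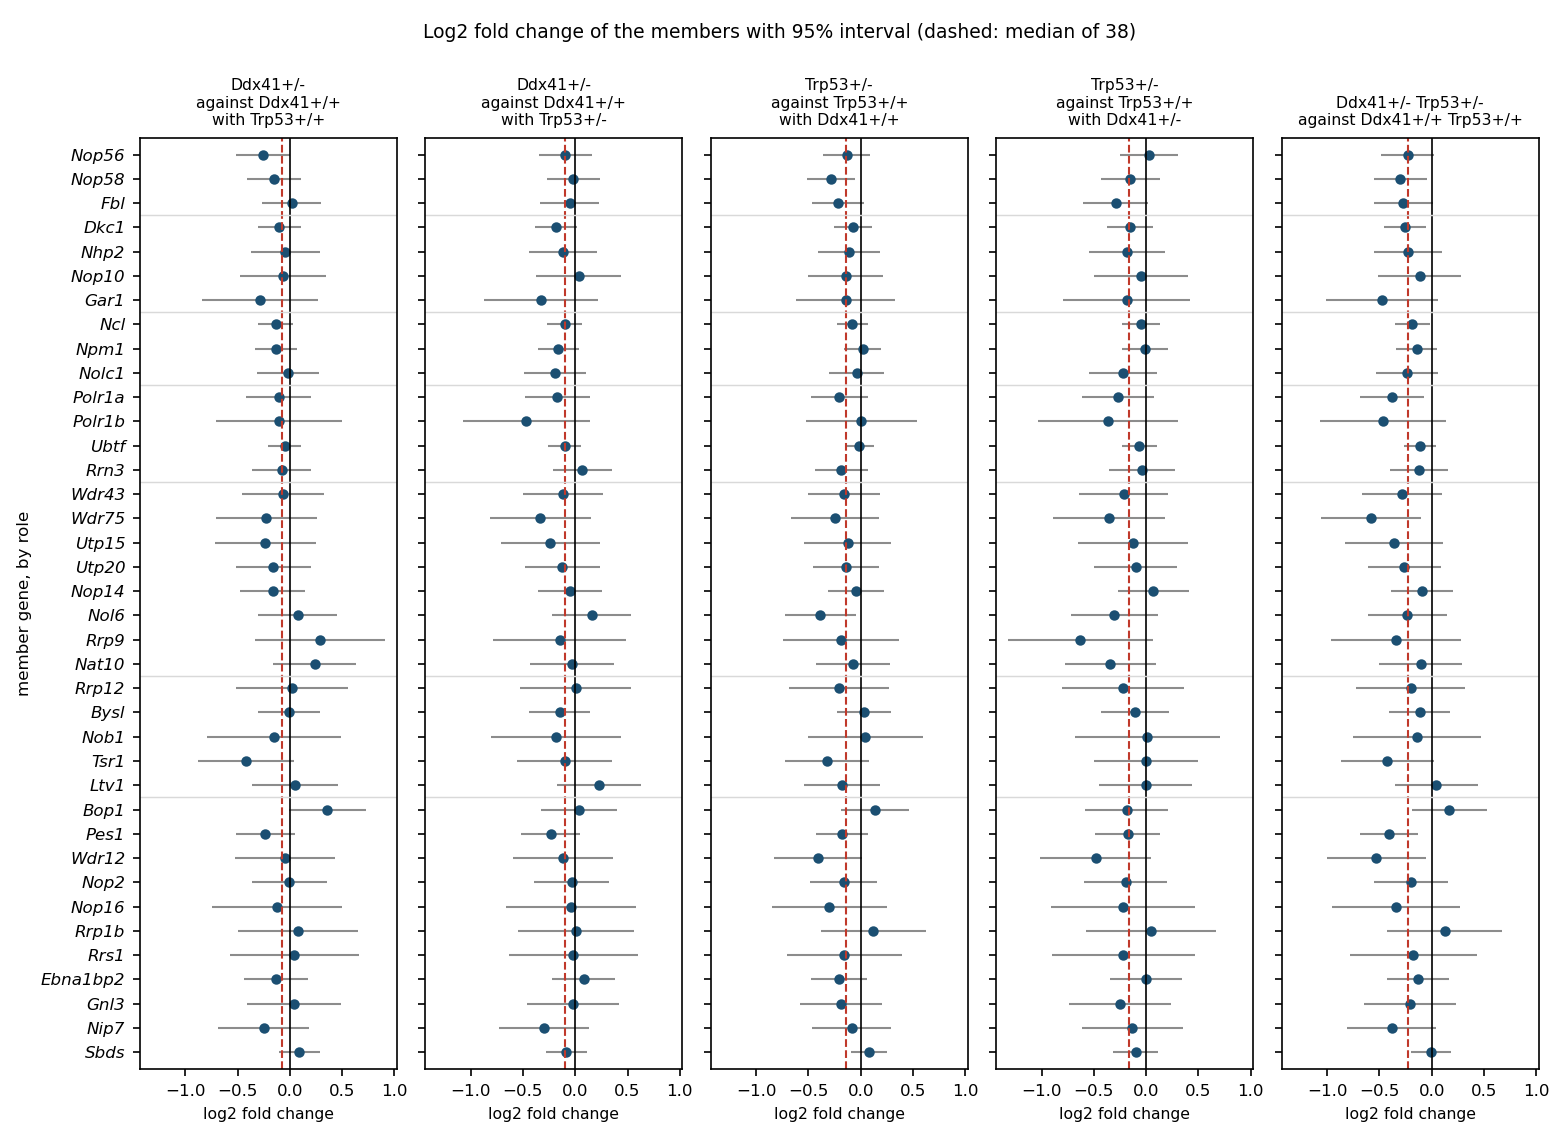
Log2 fold change (point) and 95% interval (line) of each member by role in 5 comparisons of 2 genotypes, with the median of the 38 members dashed in red. Nearly all intervals cross 0, and the median moves from -0.07 for Ddx41+/- with Trp53+/+ to -0.23 for double-heterozygous against wild-type mice.

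With all 10 mice in an additive model, the Ddx41 effect over both Trp53 genotypes had no member called by edgeR (0.144% of all tested genes) or DESeq2, 28 below 0 (49.9%) and a median log2 fold change of -0.08. The lowest were Gar1 (-0.31, SE 0.18), Polr1b (-0.29, SE 0.20) and Wdr75 (-0.28, SE 0.16) and the highest Bop1 (0.19, SE 0.12), Ltv1 (0.14, SE 0.13) and Nol6 (0.12, SE 0.12). Pes1 (-0.24, SE 0.09, edgeR adjusted p = 0.46), Npm1 (-0.15, SE 0.06), Ncl (-0.12, SE 0.05) and Dkc1 (-0.14, SE 0.07) had unadjusted p-values under 0.05 (4 of 38, against 3.93% of all tested genes with lower values). Without wild-type replicate 12 there were 9 such members, and without Ddx41+/- replicate 32 there were none. There was 1 without wild-type replicate 11, Trp53+/- replicate 22 or double-heterozygous replicate 46, and there were 2 without double-heterozygous replicate 47. The intervals of 34 members, among them all 11 of 60S assembly, lay within 1.5-fold.

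The Trp53 effect over both Ddx41 genotypes had no member called by edgeR (0.439% of all tested genes) or DESeq2, 32 below 0 (50.7%) and a median log2 fold change of -0.13. The lowest were Wdr12 (-0.44, SE 0.15, edgeR adjusted p = 0.265), Rrp9 (-0.36, SE 0.20) and Nol6 (-0.35, SE 0.12, edgeR adjusted p = 0.266) and the highest Rrp1b (0.09, SE 0.18), Nob1 (0.03, SE 0.20) and Bop1 (0.01, SE 0.12), and the values of Bop1 and Nob1 changed sign without single mice. Wdr12, Nol6, Fbl (-0.25, SE 0.09), Nop58 (-0.23, SE 0.08) and Polr1a (-0.23, SE 0.10) had unadjusted p-values under 0.05 (5 of 38, against 5.01% of all tested genes with lower values). Npm1 (0.01, SE 0.06) and Ubtf (-0.03, SE 0.05), among the most abundant members, had narrow intervals around 0, from -0.12 to 0.14 and from -0.14 to 0.07. Without wild-type replicate 11 there were 3 members with such a p, without wild-type replicate 12 there were 9 and without Trp53+/- replicate 22 there were 8. The comparisons above share mice, so their values are not independent of each other.

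The other genes of the pathway were followed as 6 lists, of which 118 genes had a row and all 118 passed the filter. None was called in any of the 8 comparisons. With intact Trp53 their median Ddx41 effect was 0.01, with 57 of 118 below 0, and with 1 Trp53 allele it was -0.06, with 78 below 0. The median Trp53 effect was -0.06 with intact Ddx41 (74 below 0) and -0.13 with 1 Ddx41 allele (91 below 0), and the double heterozygotes differed from wild-type mice by a median of -0.11 (90 below 0). In the latter comparison 32 of 36 other processome factors, 30 of 37 other 60S factors and 13 of 16 nuclear exosome and nuclease genes were below 0, against 7 of 12 other RNA polymerase I factors, 5 of 9 snoRNP assembly factors and 3 of 8 other 40S factors. In each mouse the median of the other pathway genes stood on the same side of 0 as that of the members, other than in Ddx41+/- replicate 32, where it was 0.05 against -0.04.

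Regulators of the pathway were read beside the members. Myc, the activator, was measured at 12.6, 8.26 and 12.9 CPM in wild-type, 11.2 and 16.9 in Ddx41+/-, 14.1, 10.6 and 12.1 in Trp53+/- and 13.7 and 14.6 in double-heterozygous mice. It was highest in Ddx41+/- replicate 34 and lowest in wild-type replicate 11, and was not called in any comparison. The Myc partner Max and the repressors Mnt and Mxd4 were not called either, and Mnt was measured at 20.5, 17.9 and 15.4 CPM in wild-type, 21.1 and 24.4 in Ddx41+/-, 19.7, 22.7 and 24.2 in Trp53+/- and 23.8 and 23.1 in double-heterozygous mice, with the lowest value in wild-type replicate 12. Mycn did not exceed 1.34 CPM in any mouse. Mdm2, which binds Rpl5 and Rpl11 when they are free, was measured at 82.8 to 94.0 CPM over all mice. Rpl11 was highest in wild-type replicates 10 and 11 and Trp53+/- replicate 22, at 412.8, 422.1 and 404.9 CPM, and at 342.8 to 364.0 CPM in the other 7 mice. Cdkn1a, the p53 target that stops the cell cycle, was called in 2 comparisons, with a log2 fold change of 1.20 (SE 0.22, edgeR adjusted p = 0.0153) for Ddx41+/- with Trp53+/+ and -1.57 (SE 0.25, edgeR adjusted p = 0.00973) for Trp53+/- with 1 Ddx41 allele. The difference of its Ddx41 effects between the Trp53 genotypes was -1.07 (SE 0.33, edgeR adjusted p = 0.672).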

How the data were processed

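RNA-seq of sorted R2 cells was analysed for 10 mice, 1 library per mouse. Mice 35 and 45 were marked as removed from the deposited counts, which hold no values for them. The reason was not given in the sources used here. The labels name a stranded mRNA library kit, whereas the study's methods name an unstranded TruSeq kit, and the strand setting and annotation of the counting were not given in the sources used here. The submitters' processing notes name FastQC 0.11.7, HISAT2 2.0.5, featureCounts 1.5.2 and mm10. The authors deposited 1 table of whole-number read counts per gene, not normalized.

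Genotypes came from the labels. Genes were kept by edgeR's filterByExpr, counts were scaled by TMM, and 1 model with the 4 genotypes was fitted with edgeR 4.0.16 (quasi-likelihood, R 4.3.3, limma 3.58.1) across all 11846 genes, with p-values adjusted over all of them by Benjamini-Hochberg. CPM were computed on TMM-scaled library sizes, summed over the tested genes. RPKM divided these CPM by exon unions of GENCODE M21 (GRCm38). Tests were two-sided. An additive model gave the effects over both genotypes. Alternatives were DESeq2 1.42.0 and its size factors, total count scaling, other filters, a likelihood ratio test, 1 surrogate variable (sva 3.50.0), pairwise fits, other call rules and leaving out each mouse. The fits were tested on simulated data. Figures and summaries used Python 3.11.15, numpy 2.4.6, pandas 2.3.3, scipy 1.17.1 and matplotlib 3.10.9.

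The members and lists were chosen with earlier results of these data known. The rule for named genes took the called members and the 3 lowest and 3 highest of each comparison, the 5 highest and 5 lowest levels and the 3 largest spreads. Members with an unadjusted p under 0.05 or without overlap, and those shown in full by role, were named after their values were seen. Replicate libraries of a genotype differed by more than counting noise (chi-square per degree of freedom 6.58 to 16.8). The p-values cover the spread between mice of these groups.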

Additional observations from a re-analysis of the deposited data

How the results depend on the processing

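No member was called under any alternative that used adjusted p-values, and the call rule of an unadjusted p under 0.05 gave 2, 7, 4 and 5 members for the Trp53 effect with Ddx41+/+, the double heterozygotes, and the Ddx41 and Trp53 effects over both genotypes. With 1 surrogate variable the median was 0.0659 for Ddx41+/- with Trp53+/+ and -0.0918 for the double heterozygotes. It was -0.0376 for Ddx41+/- with Trp53+/-, -0.113 for the difference of the Ddx41 effects, -0.0799 for Trp53+/- with Ddx41+/+ and -0.0339 for the Ddx41 effect over both genotypes, each over 1.5 times from the value reported. Total count scaling gave -0.0637 for Ddx41+/- with Trp53+/- and -0.0205 for the difference of the effects. The cause was not tested. Without 1 mouse at a time, the median ranged from -0.16 to 0.0135 for Ddx41+/- with Trp53+/+, from -0.127 to -0.0481 with Trp53+/-, from -0.0925 to 0.0682 for the difference of these effects, from -0.228 to -0.0857 for Trp53+/- with Ddx41+/+, from -0.174 to -0.12 with Ddx41+/-, from -0.32 to -0.148 for the double heterozygotes, and from -0.122 to -0.0409 and -0.17 to -0.109 for the Ddx41 and Trp53 effects over both genotypes. Where 1 mouse was left in a genotype, it was assumed to vary like the others. Of the named members' values, 831 kept their direction and 15 did not. Gar1 in Ddx41+/- with Trp53+/+ ranged from -0.73 (without replicate 34) to 0.12 (without replicate 32). For Trp53+/- with Ddx41+/-, Rrp1b ranged from -0.10 (without replicate 32) to 0.19, and Nop56 from -0.031 (without replicate 34) to 0.10, at -0.0056 without 47. Ltv1 in the double heterozygotes ranged from -0.049 (without replicate 46) to 0.16, at -0.023 without 12. In the Trp53 effect over both genotypes, Bop1 was -0.018 with total count scaling, -0.0049 with 1 surrogate variable, and -0.076, -0.045 and -0.017 without replicates 12, 22 and 24, and reached 0.063 without 47. Nob1 was -0.11, -0.055, -0.061 and -0.00882 without replicates 12, 22, 32 and 47 and reached 0.20 without 10. The cause of these changes was not tested. No paired analysis was possible because the genotypes share no replicate numbers. With 2 or 3 mice a genotype and 7866648 to 20283930 counts, differences under 1.5-fold were within the intervals of many members.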

Other observations

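Heatr1, a processome factor outside the 38 genes, was singled out after its values were seen. Its log2 fold change was 0.46 for Ddx41+/- with Trp53+/+ (edgeR adjusted p = 0.335) and -0.40 with Trp53+/- (edgeR adjusted p = 1.0), and the difference of these effects was -0.85 (edgeR adjusted p = 0.557). Among the other pathway genes, the smallest adjusted p-values were those of the double heterozygotes against wild-type mice for Zfp622, a 60S factor, at 0.51 (edgeR adjusted p = 0.0574), and Ftsj3, an rRNA methyltransferase, at -0.61 (edgeR adjusted p = 0.0597). They too were chosen after their values were seen, and none of these was called.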
